A study of Mus musculus with 14 samples.

Results

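Dcn, Bgn, Lum, Aspn, Ogn and Fmod encode small leucine-rich proteoglycans of the extracellular matrix, and their transcripts were followed in 14 single cells from mouse bone. The 6 genes were picked by symbol, and each had 1 row among the 9558 rows of the deposited expression table. The cells were Tomato-positive and came from adult Prrx1-CreERT;Tomato mice, whose strain was C57BL/6. In these mice the Prrx1 promoter, active in limb mesenchyme, drives a tamoxifen-dependent Cre recombinase that switches on the red reporter, so that a cell is red because it or its ancestor used this promoter when tamoxifen was given. All cells shared this genotype and a tamoxifen treatment of 2 mg per 30 g of body weight once a day for 3 days. They came from tibiae, radii and ulnae that had been flushed of marrow and digested with collagenase, and they were sorted and then picked singly. The labels name no animal and hold no untreated or wild-type cells, so the 14 cells form 1 sample in 1 group. Values are therefore given per cell, or as medians and SDs that describe the 14 cells alone, and no p-value is given.

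Small leucine-rich proteoglycans are secreted proteins built around a curved stack of leucine-rich repeats, most of which bind fibrillar collagen and shape the diameter and spacing of its fibrils. Decorin (Dcn), biglycan (Bgn) and asporin (Aspn) form one class of the family. Decorin and biglycan carry chondroitin or dermatan sulfate chains, whereas asporin has an aspartate-rich stretch in their place. Lumican (Lum) and fibromodulin (Fmod) belong to another class that can carry keratan sulfate, and osteoglycin (Ogn, also called mimecan) to yet another. In bone, biglycan and decorin are proteoglycans of the organic matrix that osteoblasts lay down. Several members also bind growth factors such as TGF-beta.

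Levels are log2 quantile-normalized FPKM (fragments counted per kilobase of transcript and per 1000000 mapped fragments), read as log2(FPKM + 1), and a value of 1 or more is called detected. Quantile normalization gave every cell the same 5066 rows at 1 or more and the same highest value of 14.58, so that a level is in effect a rank within its cell. Fewer transcripts of a gene and more of other transcripts in the same cell therefore cannot be told apart. Cells 11 and 14 stood apart in blood cell genes. The mean level of 10 pan-haematopoietic genes was 9.51 in cell 11 and 10.03 in cell 14, against 1.86 to 7.12 in the other cells, and Ptprc, the gene of the leukocyte antigen CD45, was at 8.31 and 6.51 in them. The cells also fell into a larger set (cells 1, 2, 5, 6, 7, 8, 9, 10 and 14) and a smaller set (cells 3, 4, 11, 12 and 13) by which rows were at 0. The median correlation of presence was 0.27 within these sets and 0.10 between them. Both sets were read from these same rows at 0, so a higher value within them follows from how they were drawn. No label names the sets.

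The genes differ in their surroundings in the genome. Dcn (ENSMUSG00000019929) and Lum (ENSMUSG00000036446) are neighbours on the plus strand of chromosome 10 in GRCm38, at chr10:97479609-97518143 and chr10:97565128-97572703, with 47.0 kb between them. Aspn (ENSMUSG00000021388, chr13:49544443-49567565) and Ogn (ENSMUSG00000021390, chr13:49608046-49624501) lie on the plus strand of chromosome 13 with Omd, the osteomodulin gene, between them. Fmod (ENSMUSG00000041559) is at chr1:134037254-134048277 and Bgn (ENSMUSG00000031375) at chrX:73483602-73495933, both on the plus strand. RefSeq promoter sequences matched 4 of the 6 genes, namely Bgn, Aspn, Ogn and Fmod. Those of Aspn and Ogn, which lie in 1 cluster and were high in many of the same cells, are shown with that of Bgn, whose levels ranked the cells in another order. Each is the 250 bases before the transcription start on the plus strand of GRCm38.p6, and it overlaps no annotated exon of its gene. The Aspn window is chr13:49544193-49544442, the Ogn window chr13:49607765-49608014 and the Bgn window chrX:73483351-73483600. Capitals mark matches on either strand to TATAAA, the core of a TATA box, and to GGGCGG, a GC box, and overlapping matches run together.
Aspn: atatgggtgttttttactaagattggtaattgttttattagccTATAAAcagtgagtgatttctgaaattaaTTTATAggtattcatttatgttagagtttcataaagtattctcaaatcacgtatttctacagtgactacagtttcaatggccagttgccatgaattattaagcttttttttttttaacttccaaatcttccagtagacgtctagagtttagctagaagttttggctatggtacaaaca
Ogn: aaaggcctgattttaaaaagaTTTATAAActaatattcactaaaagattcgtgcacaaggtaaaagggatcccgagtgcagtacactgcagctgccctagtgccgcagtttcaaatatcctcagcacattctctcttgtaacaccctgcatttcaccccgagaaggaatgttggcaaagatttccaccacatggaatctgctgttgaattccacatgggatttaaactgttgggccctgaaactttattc
Bgn: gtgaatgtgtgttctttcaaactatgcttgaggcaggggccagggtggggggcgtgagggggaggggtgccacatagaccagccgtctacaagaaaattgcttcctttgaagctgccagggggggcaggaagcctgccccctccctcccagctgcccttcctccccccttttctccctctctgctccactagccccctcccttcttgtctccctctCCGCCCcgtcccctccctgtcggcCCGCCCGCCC
Of the 250 bases, 30.0% were G or C before Aspn, 42.0% before Ogn and 64.4% before Bgn, against a median of 52.4% over the 32851 promoters of the same length. The Aspn and Ogn windows each held 2 matches to TATAAA and none to GGGCGG, and the Bgn window held 3 matches to GGGCGG and none to TATAAA. Over all promoters, 12.4% held TATAAA and 32.7% held GGGCGG. Such a match describes the letters and is not evidence of a bound site, and any bearing on the levels was not tested. The Fmod window held neither.

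Transcripts of the family were widespread in these cells. At least 7 cells held each of the 6 genes at the detection level, and all 14 cells held 5 of them, against 51.7% and 15.8% of all rows. At a log2 value of 5 or more, 5 of the 6 genes were found in at least 7 cells, against 13.4% of all rows, and 1 gene, Dcn, in all 14, against 2.46%. An exact 95% interval for a gene seen in 14 of 14 cells starts at 76.8% of cells. Such intervals, also that of Fmod below, take the cells as independent draws, although no animal is named. They cover counting error only. The genes had been chosen with such results known, so these shares describe them and test nothing.

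**Figure D1:**
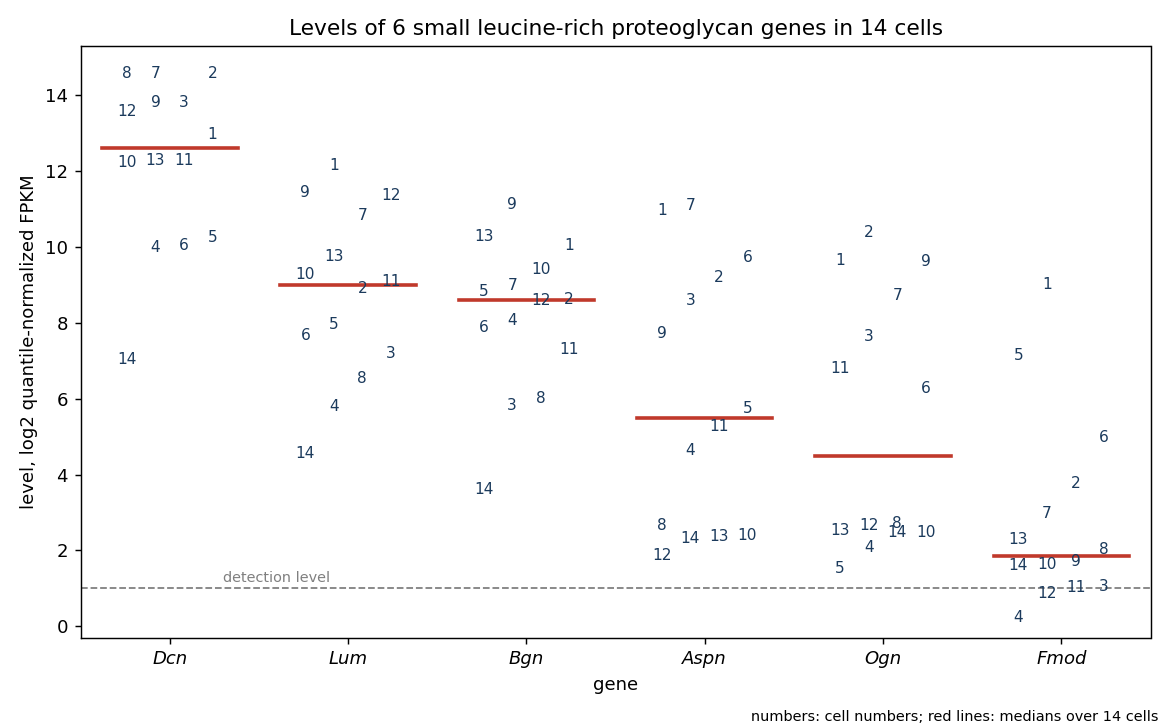
Level of each gene (log2 quantile-normalized FPKM, vertical axis) in each of the 14 cells, written as cell numbers, with the median over cells as a red line and the detection level of 1 as a dashed line. Dcn lies highest, Lum and Bgn overlap, Aspn and Ogn spread over both high and low values, and Fmod is above 5 in cells 1 and 5 only.

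Decorin led the family. Dcn, whose protein binds collagen and several growth factors, had 7.04 in cell 14 as its lowest level, a median of 12.62 and 14.58 as its highest, with an SD of 2.23. It was the top-ranked row of all 9558 in cells 2, 7 and 8, and held rank 2 in cells 3 and 9. Cell 12 had it at rank 3, cell 1 at rank 5, cells 11 and 13 at rank 11 and cell 10 at rank 12. Cells 4, 5 and 6 formed a lower group at 9.97, 10.24 and 10.03, where Dcn ranked 103 to 128. In cell 14 it ranked 800. Dcn was the highest of the 6 genes in all 14 cells. It made up a median of 76.5% of their summed back-transformed FPKM, from 43.0% in cell 6 to 99.3% in cell 8.

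The 6 genes together took a small but variable part of the summed back-transformed values. Normalization made this sum nearly the same in every cell. Such shares, also that of Dcn above, therefore follow from the ranks of the genes and are not amounts of RNA. Their back-transformed FPKM summed to a median of 1.72% of the total over all rows. Cells 7, 2 and 8 had the largest shares, 4.56%, 4.24% and 3.83%, and cells 4 and 14 the smallest, 0.21% and 0.03%. Since Dcn carried most of this sum, the mean of the 6 log2 levels gives another order of cells. That mean had a median of 6.93 and an SD of 1.93. Cell 1 was highest at 10.79, ahead of cells 7, 2 and 9 at 9.53, 9.24 and 9.23. Cell 4 was at 5.13 and cell 14 lowest at 3.60. Cell 8, with 1 of the 3 highest Dcn levels, had a mean of 5.75, above only those of cells 4 and 14.

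Lumican and biglycan followed decorin at like levels. Lum, whose protein regulates collagen fibril assembly in many connective tissues, ranged from 4.56 in cell 14 to 12.14 in cell 1, with a median of 8.997 and an SD of 2.26. It was also high in cell 9 at 11.43, cell 12 at 11.35 and cell 7 at 10.82, and low in cell 4 at 5.79 and cell 8 at 6.53. Bgn, whose product is a major small proteoglycan of bone matrix, ranged from 3.62 in cell 14 to 11.11 in cell 9, with a median of 8.61 and an SD of 1.99. Cells 13, 1 and 10 came next at 10.28, 10.03 and 9.41, and cells 3 and 8 were low at 5.82 and 6.01. Both genes were lowest in cell 14, and 13 cells held each of them at 5 or more.

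Asporin and osteoglycin had the widest spread. Of all rows, 0.314% had a larger SD than Aspn and 0.534% a larger SD than Ogn. Aspn, whose protein binds collagen and TGF-beta, had a median of 5.501 and an SD of 3.45. Cells 7, 1, 6, 2, 3 and 9 held it at 11.10, 10.97, 9.72, 9.18, 8.58 and 7.72. Cells 5, 11 and 4 followed at 5.74, 5.27 and 4.65. The other 5 cells lay between 1.87 and 2.65, with a gap of 2.00 log2 units below cell 4.

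Ogn, which encodes a small matrix proteoglycan first described in bone, divided the cells more sharply. Its levels in cells 2, 1, 9, 7, 3, 11 and 6 were 10.39, 9.64, 9.62, 8.71, 7.65, 6.81 and 6.27. The other 7 cells lay between 1.53 and 2.70, so that no cell had a level in the 3.58 log2 units between 2.70 and 6.27. Its median of 4.49 falls inside this gap and is the level of no cell (SD 3.35). The low values of both genes were above the detection level. Both genes thus count as detected in 14 of 14 cells, whereas 9 and 7 cells held them at an FPKM of 10 or more. All 7 cells with Ogn at 6.27 or more had Aspn at 5.27 or more, and of the 7 cells with low Ogn, cells 4 and 5 had Aspn at 4.65 and 5.74.

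Fibromodulin was low in most cells. Fmod, whose protein binds collagen and is abundant in tendon and cartilage, had a median of 1.86 and an SD of 2.55, with 0.24 in cell 4 as its lowest level. Cells 1 and 5 had it at 9.02 and 7.14, and cells 6 and 2 at 4.97 and 3.77. The remaining cells lay at 2.97 or lower. It was detected in 12 cells (85.7%, exact 95% interval 57.2% to 98.2%) and reached an FPKM of 10 in 4. It was the lowest of the 6 genes in 13 cells, and in cell 5 that place went to Ogn at 1.53.

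The order of the medians was Dcn, Lum, Bgn, Aspn, Ogn and Fmod. Levels were compared within each cell, as differences between FPKM-based log2 values, which are per length of transcript. Dcn exceeded Lum by a mean of 3.54 ± 1.98 (SD, 14 cells) and was higher in 14 of 14 cells. None of the other neighbours in the order differed by more than 1 SD of their within-cell difference. Bgn minus Lum averaged -0.56 ± 1.35, with Bgn higher in 5 cells and Lum in 9. Bgn minus Aspn averaged 2.14 ± 3.50, and Aspn was above Bgn in 5 cells. Aspn minus Ogn averaged 0.64 ± 1.90, with Aspn higher in 6 cells and Ogn in 8. Ogn minus Fmod averaged 2.52 ± 3.62, with Ogn higher in 13 cells. The library kit captures the 3' ends of transcripts, whose reads do not grow with length, so the division by length lowers long transcripts against short ones. The longest annotated transcripts ran from 1758 bases for Dcn to 3120 for Fmod. With the division undone the order of the medians stayed as above, and Dcn was highest in 13 cells.

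**Figure D2:**
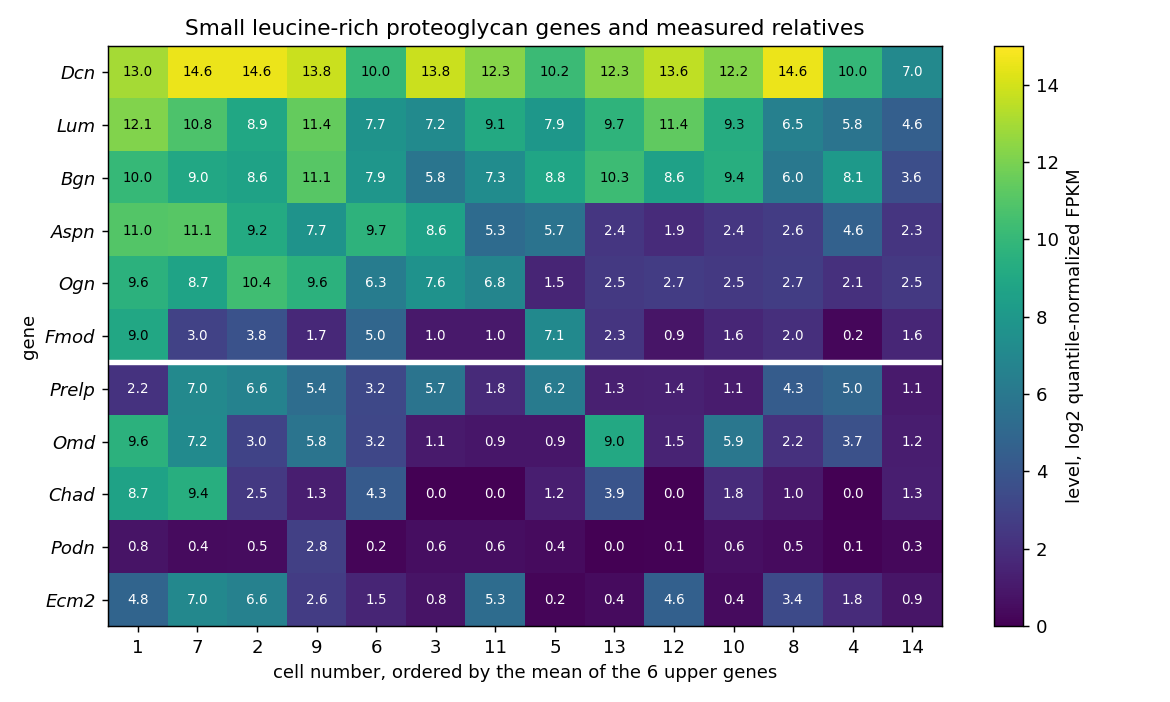
Levels (colour and printed values, log2 quantile-normalized FPKM) of the 6 genes above the white line and of 5 relatives below it, with a column per cell ordered by the mean of the 6 genes. Cell 1 has all 6 genes at 9.02 or more, and cell 14 has its highest family level, 7.04, in Dcn.

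The genes were compared over the cells by rank correlation. These correlations describe 14 cells that share 1 kind of library and 1 normalization, and they are not given a p-value. All 15 pairs had a Spearman correlation above 0, with a median of 0.36 and a range from 0.17 to 0.80. Over all pairs of the 4932 symbols detected in at least 7 cells the median was 0.01, and 50.7% of pairs were above 0. Without cells 11 and 14 the median of the 15 pairs was 0.27. With cell 4 or cell 14 left out alone it was 0.25.

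The closest pair was Bgn and Lum, which lie on different chromosomes. Their Spearman correlation was 0.80 and their Pearson correlation 0.81. It was 0.78 without cells 11 and 14, 0.95 within the larger set of cells and 0.60 within the smaller set. Dcn and Ogn followed with a Spearman correlation of 0.72 and a Pearson correlation of 0.53. Cells 8 and 12 went against this pair, with Dcn at 14.58 and 13.56 and Ogn at 2.70 and 2.66. Aspn and Ogn had a Spearman correlation of 0.68 (Pearson 0.84), which was 0.67 without cells 11 and 14 and 0.68 and 0.60 within the larger and the smaller set. Aspn and Fmod had 0.60 (Pearson 0.54), and 0.20 within the smaller set, where Fmod was at 2.30 or lower.

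Decorin and biglycan, close relatives in protein structure, did not rank the cells alike. Their Spearman correlation was 0.19, and it was -0.02 without cells 11 and 14. The Pearson correlation was 0.42. Cell 8 had Dcn at 14.58 and Bgn at 6.01, and cell 3 had 13.82 and 5.82. Cell 5, in contrast, had Dcn at 10.24 and Bgn at 8.83. Bgn also ranked the 5 cells of the smaller set against Aspn and Ogn, with correlations of -0.90 and -0.70 there against 0.40 and 0.42 in the larger set, in each case over few cells. Lum did so against Aspn too, with -0.70 in the smaller set and 0.60 in the larger. With Ogn, Lum had 0.10 in the smaller set. Whether the pairs differ between the sets was not tested.

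**Figure D3:**
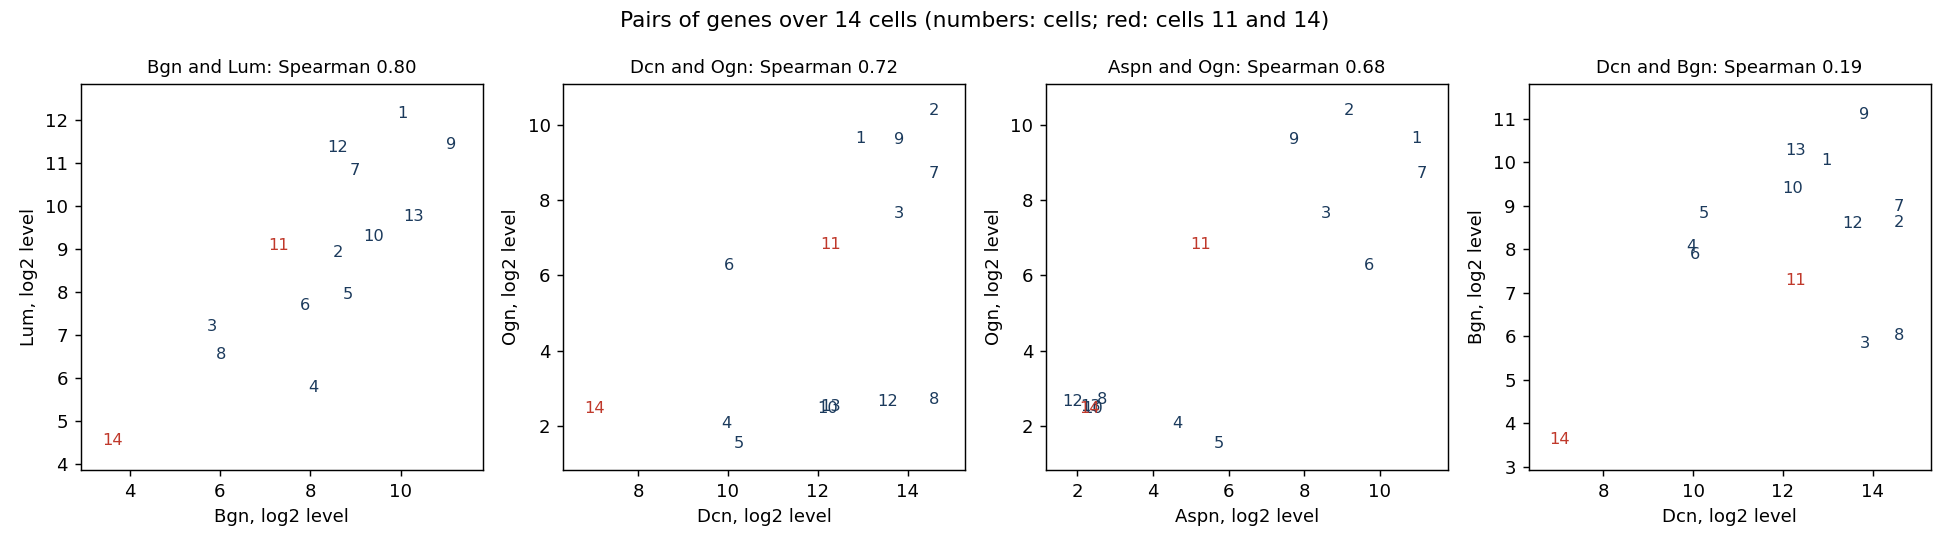
Levels (log2 quantile-normalized FPKM on both axes) of 4 pairs of genes in the 14 cells, written as cell numbers, with cells 11 and 14 in red. Bgn and Lum rise together (Spearman 0.80), Ogn splits the cells into 7 high and 7 low ones, and Dcn and Bgn show little common order (0.19).

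Relatives outside the 6 genes had median levels below those of Dcn, Lum, Bgn, Aspn and Ogn, and Prelp, Omd and Ecm2 had medians above that of Fmod. Of 12 further family genes listed, 5 had a row, of which 4 reached detection in at least 7 cells, and 7 were not analysed here. Prelp, which encodes a basic leucine-rich repeat protein that binds heparan sulfate and collagen, was found in each of the 14 cells and reached 7.04 in cell 7 (median 3.79). Omd reached detection in 12 cells (median 3.12), and cells 1, 13, 7 and 10 had it at 9.62, 9.03, 7.18 and 5.93. Chad, the gene of the cartilage protein chondroadherin, reached 9.43 in cell 7 and 8.66 in cell 1, above a median of 1.29. Ecm2 was found in 9 cells, with 7.02 in cell 7 at the top. Podn, the podocan gene, was detected in 1 cell, cell 9, at 2.84.

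Position in the genome and co-variation were set side by side. The chromosome 13 cluster holds Ecm2, Aspn, Omd and Ogn in this order, all on the plus strand, with gaps of 11.7, 14.9 and 15.2 kb and no other protein-coding gene between them. Prelp and Fmod are 115.8 kb apart on chromosome 1, on opposite strands. The 8 pairs in a shared cluster had a median Spearman correlation of 0.36 (range 0.17 to 0.70), and the 47 pairs on different chromosomes had 0.33 (range -0.09 to 0.80). Within the chromosome 13 cluster, Ogn correlated with Ecm2 at 0.70 and with Aspn at 0.68, but with its direct neighbour Omd at 0.30. Omd correlated with Bgn on the X chromosome at 0.71. Aspn correlated with Omd at 0.25 and with Prelp on chromosome 1 at 0.71, and Fmod with Chad on chromosome 11 at 0.77. Dcn and Lum had 0.40, and Prelp and Fmod 0.32.

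**Figure D4:**
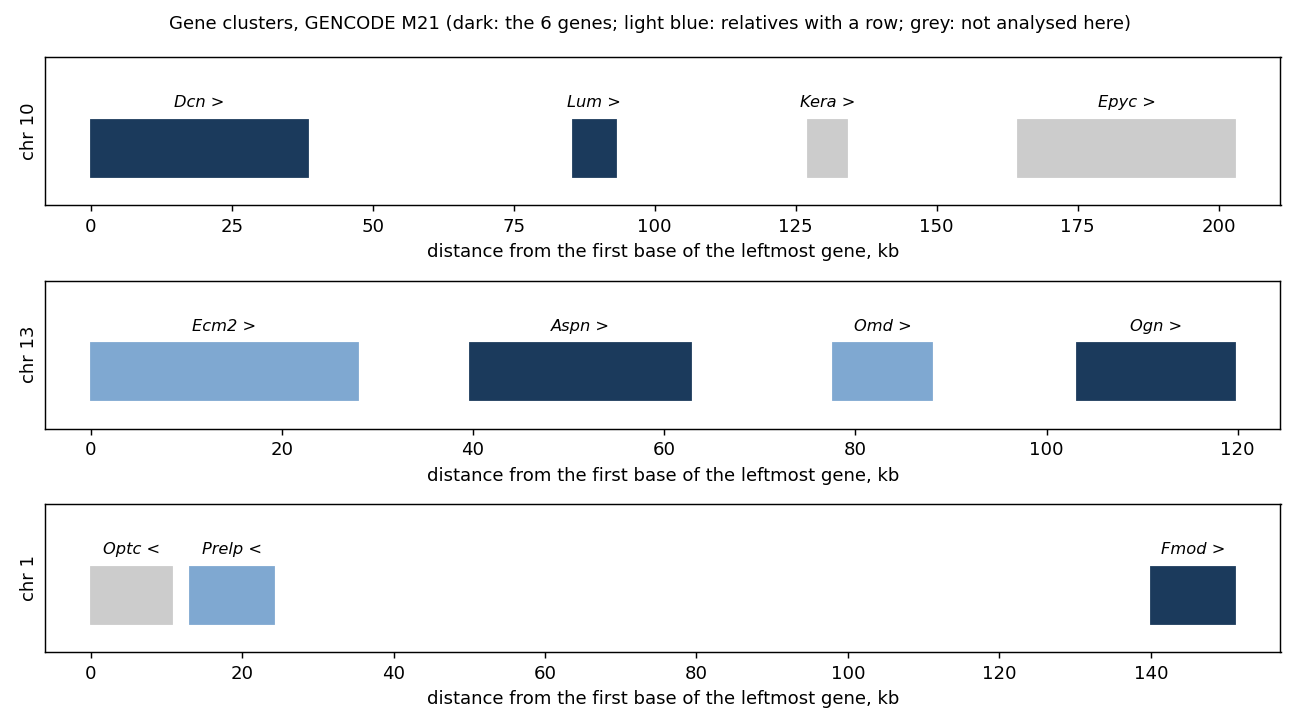
Map of the 3 gene clusters (GENCODE M21, GRCm38), with distance in kb from the first base of the leftmost gene and arrowheads for the strand. Dark boxes are the 6 genes, light boxes relatives with a row and grey boxes genes not analysed here. Aspn and Ogn are separated by Omd.

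The cells with the most osteoblast transcripts differed from each other in their mixture of family members. The mean of 12 osteoblast genes was highest in cells 10, 13 and 6, at 5.96, 5.70 and 4.96, against 0.74 to 2.64 in the other cells. Cells 10 and 13 had Bgn at 9.41 and 10.28, and Omd, whose protein is found in mineralized tissue, at 5.93 and 9.03. In the same 2 cells Aspn was at 2.40 and 2.36 and Ogn at 2.48 and 2.52. Cell 6 had higher Aspn and Ogn, at 9.72 and 6.27, with Bgn at 7.87 and Omd at 3.21, near the Omd median. The mean of 10 neutrophil genes was also highest in cell 6, at 9.20, and its part in these values was not tested. High Bgn and Omd were not particular to cells 10 and 13. Cells 1 and 9 had Bgn at 10.03 and 11.11 and Omd at 9.62 and 5.78, with osteoblast means of 2.04 and 1.76. Aspn and Ogn were also low in cells 8, 12 and 14. The osteoblast mean correlated with the mean of the 6 genes at 0.36 (Pearson 0.02), with Bgn at 0.52 and with Lum at 0.56.

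Over the 14 cells, the mean of the reticular stromal list followed the family mean most closely among the means of the cell type lists. The list held 6 measured genes, Lepr, Cxcl12, Kitl, Vcam1, Foxc1 and Ebf1, and its mean over these genes had a Spearman correlation of 0.85 with the mean of the 6 proteoglycan genes (Pearson 0.81). It was 0.82 without cells 11 and 14, and 0.81 to 0.91 with each cell left out in turn. Within the larger set it was 0.85, and within the smaller set of 5 cells 0.30. The list of other fibroblast matrix genes was higher within the larger set, at 0.87, and had a Pearson correlation of 0.80 over the 14 cells. By gene, the correlation with the reticular stromal list was 0.87 for Ogn, 0.81 for Lum, 0.62 for Dcn, 0.56 for Aspn, 0.49 for Bgn and 0.30 for Fmod. Cells 2 and 7 had Lepr, the leptin receptor gene, at 10.56 and 9.97, and Ogn at 10.39 and 8.71. Taken singly, the list genes correlated with the mean of the 6 genes at 0.67 for Lepr, 0.66 for Cxcl12, 0.54 for Kitl, 0.44 for Vcam1, 0.38 for Foxc1 and 0.13 for Ebf1. Single genes of other cell type lists were higher, namely Comp of the chondrocyte and tendon lists at 0.78 and Pecam1 of the endothelial list at 0.74. Over 4932 single symbols the median of that correlation was 0.07, and 10.1% reached 0.5 or more. That spread is of single genes and gives no scale for the 0.85 of a list mean.

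The other fibroblast matrix genes, 18 in number and all detected in at least 7 cells, correlated with the mean of the 6 genes at 0.62 (0.59 without cells 11 and 14). It was 0.87 within the larger set of cells and -0.60 within the 5 cells of the smaller set, and 0.49 without cells 6, 8, 11 and 14. By gene the correlation with that list was 0.80 for Lum, 0.78 for Bgn, 0.41 for both Aspn and Fmod, 0.35 for Ogn and 0.20 for Dcn. This list shares 6 genes with the lists of partners and proteases, namely Col1a1, Col1a2, Col3a1, Col6a1 and Col6a2 with the collagen partners and Mmp2 with the proteases. The list's mean was lowest in cell 14, at 3.88, and highest in cell 1, at 8.55. Chondrocyte genes (7 measured) correlated with the mean of the 6 genes at 0.42, and at 0.31 without cells 11 and 14. By gene that correlation was 0.72 for Lum and 0.50 for Bgn, and between 0.08 and 0.28 for the other 4. Tendon genes (5 measured) correlated with the mean of the 6 genes at 0.66 and with single genes at 0.17 for Dcn to 0.62 for Lum.

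The relation of blood cell genes to the family depended on which cells were counted, and cell 14 had the highest pan-haematopoietic mean and the lowest family mean. The pan-haematopoietic mean correlated with the mean of the 6 genes at 0.02 over 14 cells and at 0.29 without cells 11 and 14. The neutrophil mean gave 0.05 and 0.27, and the macrophage mean, over 4 measured genes, 0.05 and 0.37. Cells 6, 8, 11 and 14 had the highest means of each of these lists. Over the 10 cells left without them the correlations were 0.61 for the pan-haematopoietic, 0.50 for the neutrophil and 0.72 for the macrophage mean. Since the cells left out were the highest in the lists being correlated, their removal shapes these values, and no conclusion is drawn from them. Macrophage genes averaged 10.71 in cell 14, where the 6 genes were at 3.60, and 5.26 in cell 11, where they were at 6.96. Cell 11 thus held Dcn at 12.28, Lum at 9.09 and Ogn at 6.81 beside Ptprc at 8.31. Ptprc, detected in 5 cells, correlated with the mean of the 6 genes at -0.24, and at -0.15 without cells 11 and 14. By gene the correlation was -0.81 for Bgn, -0.67 for Lum, -0.33 for Fmod, -0.08 for Dcn, -0.01 for Ogn and 0.08 for Aspn. With a median of 0.46 for Ptprc, below the detection level, these correlations rank many values near the floor. The part of blood cell RNA in the low values of cell 14 was not tested. B cell, smooth muscle and endothelial means correlated with the mean of the 6 genes at 0.16, -0.39 and 0.22.

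**Figure D5:**
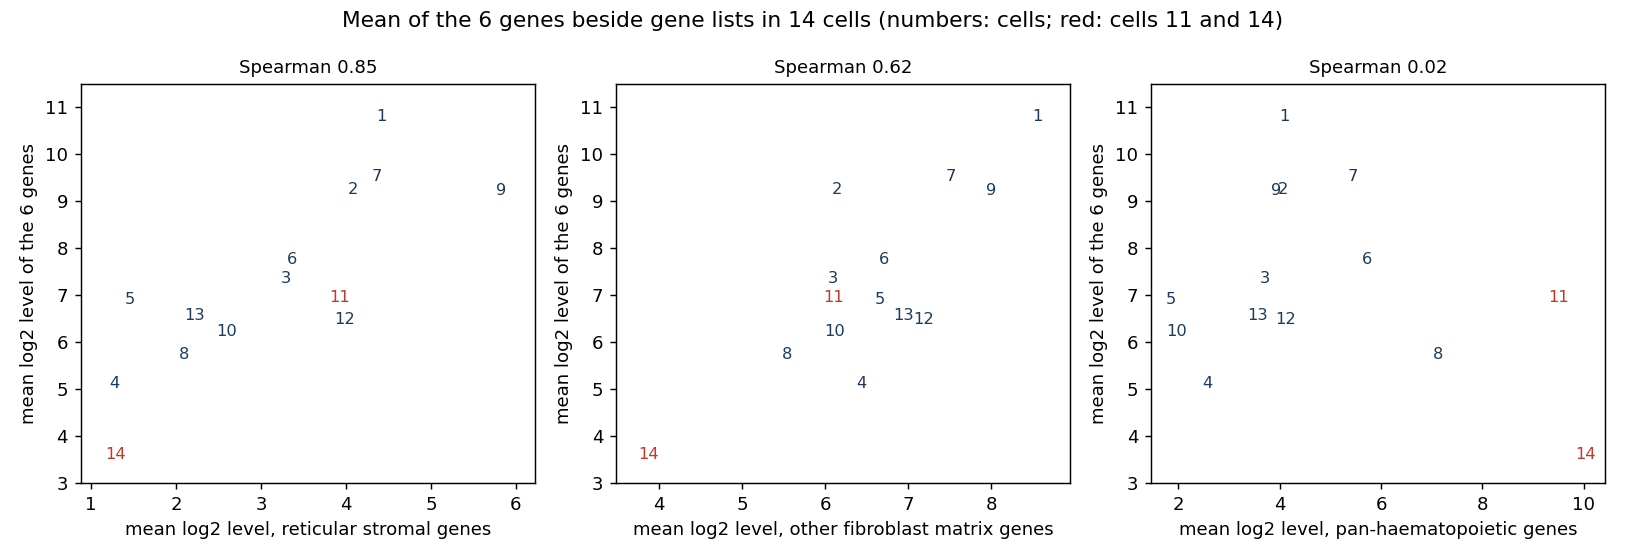
Mean log2 level of the 6 genes (vertical axis) against the mean log2 level of reticular stromal genes, other fibroblast matrix genes and pan-haematopoietic genes (horizontal axes) in the 14 cells, written as cell numbers, with cells 11 and 14 in red. The Spearman correlations are 0.85, 0.62 and 0.02.

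Prrx1, the gene whose promoter drives the Cre recombinase, varied partly with the family. Its correlation with the mean of the 6 genes was 0.41, and 0.31 without cells 11 and 14, and with single genes it ran from 0.23 for Fmod to 0.46 for Aspn. Cell 1 had the highest Prrx1 level, 7.31, and the highest family mean. Cell 2 had Prrx1 at 0.61, below detection, and Dcn at 14.58 with Ogn at 10.39.

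Most genes of the enzymes that build the sugar chains were detected in fewer than 7 cells. Of all rows, 51.7% were detected in at least 7 cells. The linker, keratan and sulfate lists, with 3 or 4 measured genes each, are too small to set against this share. Of 16 chondroitin and dermatan sulfate enzymes, 13 had a row and 1 was detected in at least 7 cells, namely Chpf, a chondroitin polymerizing factor gene, in 9 cells with a median of 1.47. Csgalnact2, which has the next highest median at 0.78, was found in 5 cells. Dse and Dsel, whose enzymes convert chondroitin into dermatan sulfate, were found in 4 and 5 cells, and were singled out after their values were seen. Of 3 measured genes for the linker between protein and chain, B4galt7 was found in 11 cells (median 2.48), B3gat3 in 6 and Xylt1 in 3. Of 3 measured keratan sulfate genes, B4galt1 was detected in 8 cells (median 1.57) and B4galt4 in 4 (median 0.44). Of the 4 sulfate supply genes, Slc35b2, a transporter of the sulfate donor, and Papss2, which makes the donor, were each detected in 9 cells. At these levels, single cells without a detected enzyme cannot be told from cells in which it was missed. The mean of the chondroitin and dermatan list correlated with the mean of the 6 genes at -0.21, that of the linker list at 0.02, that of the keratan list at 0.15 and that of the sulfate list at -0.08.

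Genes of collagen partners and of proteases that can cut these proteins were commoner. The growth factor, receptor and other proteoglycan lists lay near the 51.7% of all rows detected in at least 7 cells. Of 11 measured collagen and elastic fibre partners, 10 reached detection in at least 7 cells and 6 in each of the 14, with Col1a2 and Col1a1 at medians of 8.78 and 7.45. The list correlated with the mean of the 6 genes at 0.61, and at -0.10 within the smaller set. By gene it had 0.67 with Bgn, 0.64 with Lum, 0.53 with Aspn, 0.50 with Fmod, 0.22 with Ogn and -0.08 with Dcn. Of 9 measured proteases, 7 were detected in at least 7 cells, led by the gelatinase gene Mmp2 (median 6.63, 14 cells), Adamts1 (5.27, 13 cells) and Htra1 (4.54, 14 cells). The mean of that list correlated with the mean of the 6 genes at 0.76, and with single members at 0.31 for Fmod to 0.85 for Lum. Taken singly, the protease genes correlated with the mean of the 6 genes at -0.02 for Adamts4 to 0.65 for Mmp2. Of 8 measured growth factor partners, 5 were detected in at least 7 cells, with Ctgf, Igf1 and Bmp4 at medians of 4.72, 2.29 and 2.23. The mean of the growth factor list had a correlation of 0.83 with the mean of the 6 genes. Within it Igf1 had 0.76, with 10.28 in cell 7, and the other genes ran from -0.03 for Wisp1 to 0.41 for Ctgf. Of 6 measured receptors, 3 were detected in at least 7 cells. Cd14 was highest in cell 14, at 11.58, and the endocytic receptor gene Lrp1 was found in 12 cells (median 3.93). Of 15 other proteoglycan genes with a row, 9 were detected in at least 7 cells. Srgn, the serglycin gene of blood cell granules, had the highest median of these at 8.05, followed by the syndecan gene Sdc2 at 6.55 and the hyaluronan receptor gene Cd44 at 6.04. Over the 10 lists together, 43 of 77 measured genes were detected in at least 7 cells, which is 55.8% against 51.7% of all rows.

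The genes most like each member were taken from 4931 other symbols by Spearman correlation over the 14 cells. The first of so many is high by selection, and no test was made. For Dcn they were C1s1, a complement protease gene, at 0.88, then Nipa1 at 0.87, Cyb5a at 0.845, Ctdsp2 at 0.84 and Plxdc2 at 0.84. For Bgn they were Sparc, the osteonectin gene, at 0.87, then Fscn1, Rgs3, Ift43 and Copz2 at 0.83 to 0.81, and Lum was in position 7. For Lum they were Gng11 at 0.88, then Cbx1, Colec12, Dag1 and P3h3 at 0.85 to 0.83, and Bgn was in position 8.

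For Aspn the list opened with Penk, the proenkephalin gene, at 0.85, Ybx3 at 0.84 and Atp11a at 0.83, followed by Spaca6 and Dffa, and Ogn was in position 43. The genes most like Ogn had the highest values of the 6 lists: She at 0.94, Tmem198b at 0.93, the apolipoprotein D gene Apod at 0.92, Gpd1l at 0.91 and the cytoglobin gene Cygb at 0.90. Apod ranged from 1.42 to 12.96, with its highest level in cell 2, where Ogn was highest too. For Fmod they were Prrx2, the paralogue of Prrx1, at 0.86, then Wfdc18, Yaf2, Utp3 and Glycam1 at 0.83 to 0.78. Prrx2 and Fmod were both highest in cell 1, at 9.68 and 9.02. Cell 5 had Prrx2 at 4.13 beside Fmod at 7.14, and cell 13 had Prrx2 at 6.30 beside Fmod at 2.30. Aspn was in position 84 for Fmod and Ogn in position 43 for Dcn. Some genes of these lists were low. Tmem198b and Utp3 had medians of 0.92 and 0.90, below the detection level, and Spaca6 had 1.17. Their correlations thus rank many values near the floor.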

How the data were processed

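The submitters' processing notes list TopHat2, Cufflinks and GRCm38, without versions. Per the labels' protocols, single-cell cDNA came from the SMART-Seq v4 3' DE chemistry and was finished with Nextera XT. The deposited values are on a log2 scale with the same distribution in every cell, read as log2(FPKM + 1) after quantile normalization. Both readings rest on the values, since no label or header states them, and the authors' choice of rows is unstated in the labels and headers. The back-transformed FPKM summed to 646250 to 646278 per cell, the depth is unknown, and no interval that needs it is given. The planned scale matched the values. All 14 columns were matched to samples by title and 0 were left over. Where a symbol occurred more than once, its first row was taken.

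Computed with Python 3.11.15, numpy 2.4.6, pandas 2.3.3 and scipy 1.17.1 were levels, ranks within cells, within-cell differences and Spearman and Pearson correlations over cells. The code that ranks alike genes was run on noisy copies of Ogn planted among shuffled rows. That run checks the code and does not bear on the genes listed. Named genes are the 6 members, the 2 to 4 highest medians of pathway lists and, for each member, the 5 symbols with the highest Spearman correlation among those detected in at least 7 cells, without predicted genes. Prrx1, Ptprc, Lepr Dse, Dsel and other genes outside this rule were named after their values were seen. Genes without a row enter no count or mean. Members and lists were chosen with earlier results of these data known. Positions and transcript lengths are from GENCODE M21 and promoters from RefSeq (GRCm38.p6). No doublet caller was run on these singly picked cells. Alternatives were other detection levels, a pseudocount of 10, the length division undone, cells left out and each set of cells alone.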

Additional observations from a re-analysis of the deposited data

How the results depend on the processing

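No paired analysis was possible because all 14 cells belong to 1 group. The 24 alternative medians of the 6 genes (without cells 11 and 14, without cells 6, 8, 11 and 14, and within each set) moved by less than 1 SD over cells. Of the 5 genes detected in all 14 cells, Dcn alone was in all 14 at a log2 value of 5 or more, where Bgn and Lum were each in 13. Aspn was in 9 cells at an FPKM of 10 or more and in 8 at a log2 value of 5 or more, and Ogn in 7 at both. Fmod, detected in 12 cells, was in 4 and 2. The median over cells of the family level, 6.93, was 13.33 as the log2 of the summed back-transformed values, a sum that Dcn dominates. Of the pathway genes, 43 were detected in at least 7 cells, 74 at values above 0 and 20 at an FPKM of 10 or more. The median Aspn minus Ogn difference, -0.07, was 0.44 without cells 11 and 14, and the cause was not tested. The median pair correlation ranged from 0.25 to 0.46 with each cell left out in turn. Of 60 alternative pair correlations, 14 moved by more than the SD over the 15 pairs, and 4 pairs were below 0 in the smaller set, which holds 5 cells.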
